A study of Mus musculus with 6 samples.

Results

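The enzymes and binding proteins of DNA methylation were examined in cultured mouse cortical cells with reduced Ybx1, an RNA-binding protein that reads 5-methylcytosine in mRNA. The members were 9 genes chosen by symbol, out of 17920 genes listed, and all 9 passed the filter on low counts. They were the methyltransferases Dnmt1, Dnmt3a and Dnmt3b, the Dnmt1 cofactor Uhrf1, the dioxygenases Tet1, Tet2 and Tet3, and the methyl-CpG binding domain genes Mbd1 and Mbd3. Dnmt1 and Uhrf1, which act at replication forks, were set apart from the other 7 genes.

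RNA-seq was done on 6 libraries, 3 called WT and 3 called KD in the labels, which give the source as mouse brain at E13.5, the embryonic day. By the study's methods the cells were dissociated cortical cells grown in culture. The study's results section describes them as cultured neural stem cells from E13.5 embryos. All cultures received pLKO.1-Puro lentivirus and were then selected with puromycin, which only infected cells survive; the WT group carried a control shRNA and the KD group an shRNA against Ybx1. The series text instead speaks of a deletion, and the description in the methods was followed. Thus WT here means cells infected with a control virus, and KD means a knockdown in a mixed, dissociated culture. Which hairpin was used in the KD libraries is not given in the sources used here.

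DNA methylation in mammals sits mainly on cytosines followed by guanine. Dnmt3a and Dnmt3b place new methyl groups, whereas Dnmt1 copies the existing pattern onto the daughter strand after replication, guided by Uhrf1, which binds hemimethylated DNA. Tet enzymes oxidise 5-methylcytosine to 5-hydroxymethylcytosine and further products, which are then removed by base excision repair or lost through replication. Proteins with a methyl-CpG binding domain connect the mark to chromatin complexes, although mammalian Mbd3 itself binds methylated DNA poorly. In the developing cortex Dnmt1 is known for its part in dividing progenitors, and Dnmt3a and the Tet enzymes remain active in neurons. The data measure transcripts only, not methylation.

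Depth was similar across libraries, from 16294635 to 16497505 estimated counts in all. The targeted gene, Ybx1, had a mean of 629 ± 21.0 normalised counts in WT and kept 116 ± 36.8 in KD, or 18.5% of the WT level (SD, n = 3). Normalised counts (CPM) are counts scaled to a common library size. Markers of radial glia, neurons, interneurons and the oligodendrocyte lineage were all present, so the cells were a mixture. Summed microglia markers (4 genes) reached at most 1.93 TPM, summed endothelial markers (4 genes) at most 1.47 TPM and summed fibroblast and meningeal markers (4 genes) at most 5.71 TPM in any library, and no gene of these lists was at 0 in every library. TPM, which has the same sum in every library, divides by transcript length and is used here to compare levels between genes. In such bulk samples, fewer cells of a type and less RNA per cell cannot be told apart.

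Of the 9 genes, only Dnmt1 passed the test between KD and WT, and it rose 1.25-fold (edgeR quasi-likelihood test, adjusted p = 0.0126). None fell by edgeR, DESeq2 or limma, and 0 of 9 were lower at an unadjusted p of 0.05. Across all 13669 genes tested, 24% were called in either direction, 12% higher in KD and 11.9% lower, so 1 of 9 genes higher is close to the background. The CPM ranges of the groups were apart for 4 of 9 genes (44.4%), beside 41.6% of all genes, which is again close. The median log2 fold change was 0.05 over the 9 genes and -0.0013 over all genes. It was 0.30 for Dnmt1 and Uhrf1 and -0.02 for the other 7 genes, which ranged from -0.12 to 0.24. Whether these sets differed was not tested. Libraries with the same replicate number deviated together, although neither the labels nor the methods state a pairing. When that number entered the fit as a block, the genes called higher went from 1 to 4 (Dnmt1, Uhrf1, Tet1 and Tet2) with none lower. Of all 13669 genes, 36.6% were then called in either direction, 2539 of them higher and 2470 lower.

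**Figure D1:**
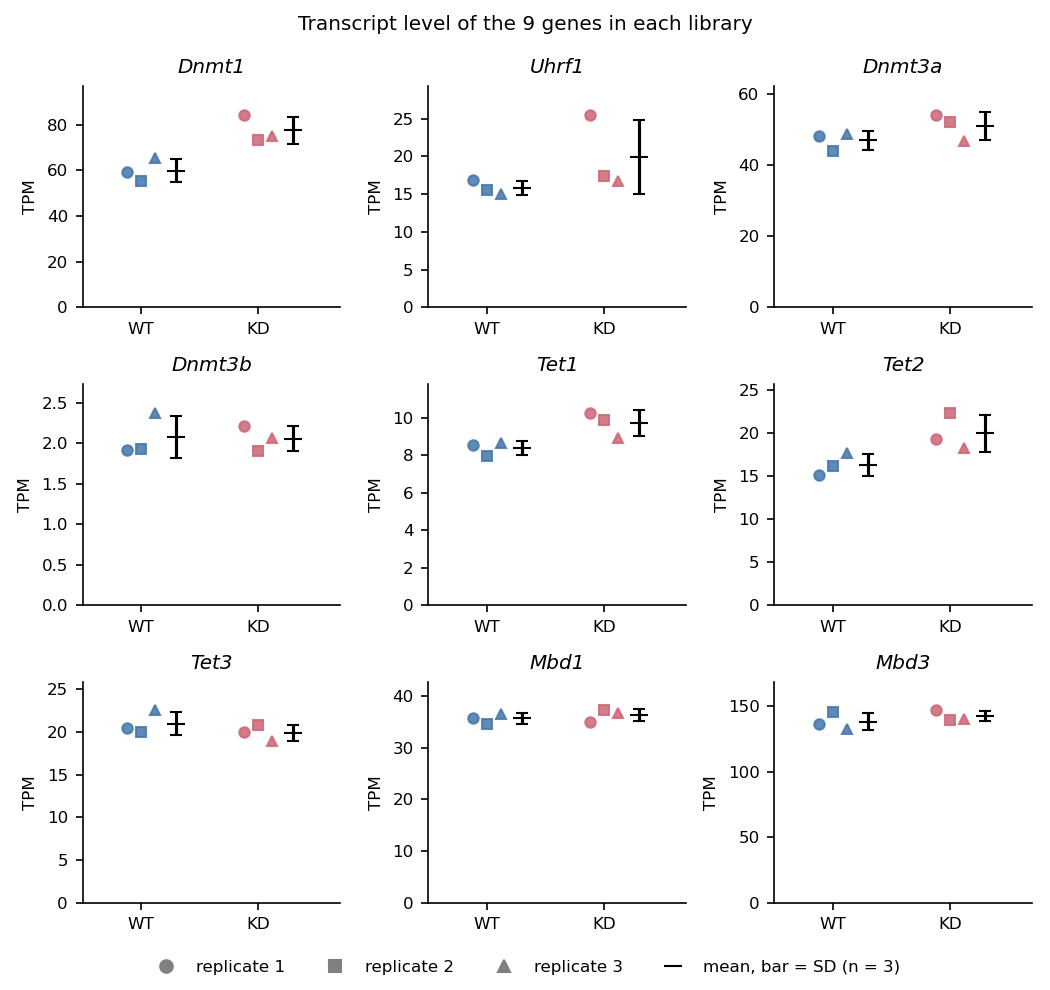
Level of each of the 9 genes (y axis, TPM) in the 3 WT and 3 KD libraries, with marker shape giving the replicate number and the black dash and bar giving mean and SD (n = 3). Dnmt1, Tet1 and Tet2 have all KD points above all WT points, Uhrf1 in KD replicate 1 stands at 25.5 TPM, and the other genes overlap between groups.

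The levels of the 9 genes spanned a wide range within the cultures. In WT the order of mean TPM was Mbd3, Dnmt1, Dnmt3a, Mbd1, Tet3, Tet2, Uhrf1, Tet1 and Dnmt3b. Mean levels ranged from 138 ± 6.44 TPM for Mbd3 to 2.08 ± 0.263 TPM for Dnmt3b (SD, n = 3). Only Tet2 and Uhrf1, neighbours in that order, had overlapping ranges in WT. In KD the ranges of Tet3, Tet2 and Uhrf1 all overlapped one another, with means of 19.92, 19.95 and 19.87 TPM, so their order was not resolved there.

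Dnmt1, the maintenance methyltransferase (Entrez Gene 13433; GRCm38 chr9:20907206-20959888, minus strand), was the second most abundant of the 9. Its level was 59.2, 55.3 and 65.4 TPM in WT replicates 1 to 3 and 84.4, 73.3 and 75.1 TPM in KD replicates 1 to 3. Every KD library was above every WT library. On the count scale, where the WT libraries held 2500, 2323 and 2655 counts and the KD libraries 3444, 2936 and 3125, the log2 fold change was 0.32 (SE 0.07, 95% interval 0.16 to 0.48). All 3 pairs with the same replicate number moved up. Without WT replicate 2 the change was 0.28 and missed the threshold (edgeR, adjusted p = 0.0569).

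Uhrf1, the hemimethyl-DNA reader that recruits Dnmt1 (Entrez Gene 18140; GRCm38 chr17:56303337-56323486, plus strand), was at 16.9, 15.6 and 15.0 TPM in WT and 25.5, 17.4 and 16.7 TPM in KD. A single library, KD replicate 1, was high, while the other KD libraries lay near or within the WT range. Its log2 fold change was 0.28 (SE 0.15, 95% interval -0.05 to 0.61; edgeR, adjusted p = 0.199). With the replicate block the value was 0.27 and passed the threshold (edgeR, adjusted p = 0.0236), and KD was above WT in 3 of 3 pairs. Without KD replicate 1 the change was 0.06 (edgeR, adjusted p = 0.627). In KD the between-library coefficient of variation of Uhrf1 was 24.0%, beside 7.35% for Dnmt1.

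**Figure D2:**
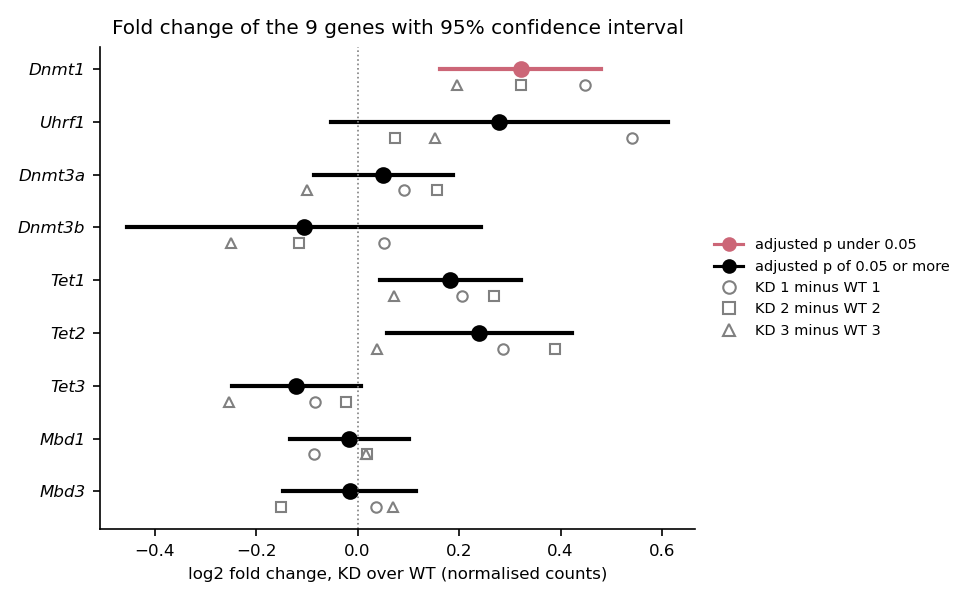
Log2 fold change of each gene, KD over WT, on normalised counts (x axis). Filled points with lines give the estimate and its 95% interval, and open symbols give the difference within each replicate number. The interval of Dnmt1 runs from 0.16 to 0.48, those of Tet1 and Tet2 also lie above 0, and KD replicate 1 pulls away from the other pairs for Uhrf1.

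Promoter sequence was read for the replication-linked genes because E2F factors, which drive many genes of S phase, recognise a short word near such promoters. RefSeq windows of 250 bases upstream of each start (GRCm38.p6) were searched on both strands for TTTCCCGC, TTTCGCGC, TTTGCCGC and TTTGGCGC. These words do not overlap the CCAAT box, which was searched separately. At least 1 E2F word was present in 1.86% of 32851 windows of that length, and CCAAT was present in 33.8%. The 13 windows read for 8 of the 9 genes held an E2F word in 2 cases, once for Dnmt1 and once for Uhrf1. Both are printed in lower case, 5′ to 3′ on the strand of the gene, with matches to E2F words and, for Uhrf1, to CCAAT in capitals.
Dnmt1, 28 bases at chr9:20952825-20952852, minus strand: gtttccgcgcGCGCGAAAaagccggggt
Uhrf1, 250 bases at chr17:56304063-56304312, plus strand: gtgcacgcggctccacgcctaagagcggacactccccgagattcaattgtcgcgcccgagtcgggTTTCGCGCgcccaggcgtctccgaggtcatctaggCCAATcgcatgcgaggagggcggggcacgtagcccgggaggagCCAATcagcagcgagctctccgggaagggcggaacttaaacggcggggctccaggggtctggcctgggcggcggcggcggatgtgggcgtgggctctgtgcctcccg
The Dnmt1 match begins 219 bases upstream of the third listed start and lies on the opposite strand, within the 5′ UTR of another annotated Dnmt1 transcript. The Uhrf1 match begins 185 bases upstream of the second listed start, in an intron of the longer Uhrf1 transcripts. These windows held 26 CpG sites for Dnmt1 and 30 for Uhrf1, beside 14 to 51 in the windows of the other genes read and a median of 6 over all windows. Each E2F word itself holds a CpG, so the 1.86% over all windows is not a like background for windows rich in CpG. The remaining windows of Dnmt1 held 2 and 7 CpG and that of Uhrf1 held 10, none with an E2F word. A match describes letters, not binding, and gene-level counts do not separate the starts.

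To set Dnmt1 and Uhrf1 beside the replication genes themselves, each was expressed against the mean log2 TPM of 17 S phase genes, none of them a member. That mean was 4.10, 3.92 and 3.94 in WT and 4.66, 4.42 and 4.33 in KD, so every KD library was higher. Among the S phase genes, which license and copy DNA, 11 of 17 rose, none fell and the median log2 fold change was 0.41. The largest were Cdc6 (0.74), Mcm6 (0.64), Mcm7 (0.62) and Cdc45 (0.60), all factors that load or form the replicative helicase. The number that rose was 15 with the replicate block, 4 without WT replicate 2 and 6 without WT replicate 3 or KD replicate 1. Among 10 G2/M genes, 4 rose and none fell, with a median of 0.43. The 4 were Mki67 (0.65), Top2a (0.62), Aurkb (0.54) and Bub1 (0.49). With the replicate block 9 of the 10 rose. Leaving out WT replicate 2 left 1 call, and leaving out WT replicate 3, KD replicate 1 or KD replicate 2 left 2. The G2/M median was 0.23 when KD replicate 1 was left out.

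Relative to the S phase mean, Dnmt1 was at 1.79, 1.87 and 2.09 in WT and at 1.74, 1.78 and 1.90 in KD, in log2 units. The groups overlapped, and the mean was lower in KD by -0.11 (two-sided exact permutation test, p = 0.4). This difference was -0.02 without WT replicate 3 and -0.17 without WT replicate 1. All 3 pairs had the lower value in KD. Uhrf1 was at -0.01, 0.04 and -0.03 in WT and at 0.01, -0.30 and -0.26 in KD. Its difference was -0.18 (two-sided exact permutation test, p = 0.3), and it was -0.28 without KD replicate 1. By pair the Uhrf1 difference was 0.03, -0.34 and -0.23 for replicates 1 to 3, so the pairs did not all go 1 way. With 3 libraries against 3 no p below 0.1 was possible, so these tests could not pass and leave the question of a difference unanswered.

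**Figure D3:**
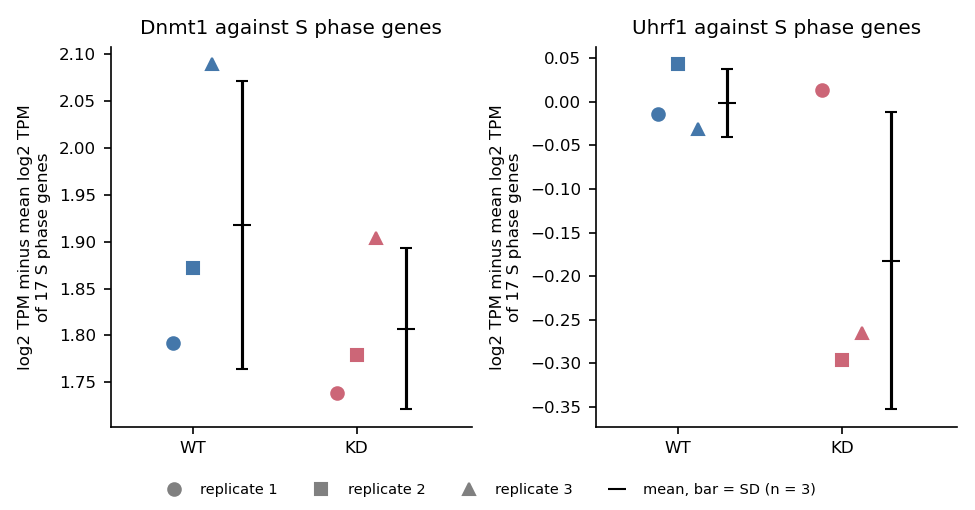
Dnmt1 (left) and Uhrf1 (right) as log2 TPM minus the mean log2 TPM of 17 S phase genes (y axis, not starting at 0) in WT and KD libraries, with mean and SD (n = 3). WT and KD overlap for both genes, with a mean difference of -0.11 for Dnmt1 and -0.18 for Uhrf1.

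Markers of progenitor types moved in the same libraries. Intermediate progenitor markers summed to between 63.4 and 86.1 TPM in WT and between 133 and 156 TPM in KD, and 4 of 5 rose (median log2 fold change 1.42). The marker that did not pass, Gadd45g, also stands in the base excision repair list, and it passed with the replicate block. Radial glia markers summed to between 3068 and 3435 TPM in WT and between 3486 and 3771 TPM in KD, and 2 of 8 rose. With the block 4 of 8 radial glia markers rose, and without WT replicate 2 none did. The part of cell type makeup in the Dnmt1 difference was not tested. Neuron markers summed to between 4852 and 5559 TPM in WT and between 4742 and 5552 TPM in KD, with 1 of 8 higher and 1 lower. The call of the lower neuron marker was lost in 8 of 15 alternatives. Interneuron markers had 1 of 5 higher, oligodendrocyte lineage markers 1 of 4 lower, and astrocyte markers none of 3 tested in either direction. With the block, 3 neuron markers were higher and 1 lower, 2 interneuron markers higher and 1 lower, and 3 oligodendrocyte lineage markers lower.

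Of 7 partners of maintenance methylation, 4 rose and none fell, with log2 fold changes from 0.13 to 1.07 and a median of 0.43. Cdca7, which brings the remodeller Hells to hemimethylated chromatin, rose from 14.6 ± 1.91 to 31.9 ± 4.28 TPM (log2 fold change 1.07). Its paralog Cdca7l rose by 0.56 in log2 units, from fractional counts in all libraries, so reads were partly shared with other genes. Hells rose by 0.50 and the sliding clamp gene Pcna by 0.43. The number that rose was 6 with the replicate block, and 2, Cdca7 and Pcna, without WT replicate 2 or KD replicate 1.

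The de novo enzymes showed no call. Dnmt3a (Entrez Gene 13435; GRCm38 chr12:3801559-3914443, plus strand) was at 48.2, 43.9 and 48.6 TPM in WT and at 54.1, 52.0 and 46.6 TPM in KD. The groups overlapped, with KD replicate 3 below WT replicates 1 and 3. The log2 fold change was 0.05 (95% interval -0.09 to 0.19; edgeR, adjusted p = 0.578).

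Dnmt3b (Entrez Gene 13436; GRCm38 chr2:153649411-153687730, plus strand), the de novo enzyme of the early embryo, was the lowest of the 9. It was at 1.92, 1.93 and 2.38 TPM in WT and at 2.21, 1.90 and 2.07 TPM in KD, from 57 to 74 counts a library. The groups overlapped. At that depth counting error alone was 12.5% of a value, and the interval of the log2 fold change ran from -0.45 to 0.24 (estimate -0.11; edgeR, adjusted p = 0.653), so a difference within it was not detectable.

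The makeup of the methyltransferase transcripts separated the groups. Dnmt1 made up 54.1%, 54.7% and 56.2% of summed Dnmt TPM in WT and 60.0%, 57.6% and 60.7% in KD. Every KD library was above every WT library, with means of 55.0% ± 1.07 and 59.4% ± 1.60 (SD, n = 3; difference 4.43 percentage points, two-sided exact permutation test, p = 0.1, the smallest the design allows). The share of Dnmt3a was 43.1% in WT and 39.0% in KD, and that of Dnmt3b 1.90% and 1.58%.

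Among the dioxygenases, Tet1 and Tet2 were higher in KD in every library and Tet3 was not, but none passed the unpaired test. Tet1 (Entrez Gene 52463; GRCm38 chr10:62804570-62887469, minus strand) was at 8.53, 7.95 and 8.63 TPM in WT and at 10.3, 9.88 and 8.93 TPM in KD. The groups did not overlap. The log2 fold change was 0.18 (95% interval 0.04 to 0.32; edgeR, adjusted p = 0.0604), and it passed with the replicate block (edgeR, adjusted p = 0.0250).

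Tet2 (Entrez Gene 214133; GRCm38 chr3:133463677-133545136, minus strand), which unlike its relatives lacks a CXXC DNA-binding domain of its own, was at 15.1, 16.1 and 17.7 TPM in WT and at 19.3, 22.3 and 18.3 TPM in KD. KD replicate 2 was the highest. The log2 fold change was 0.24 (95% interval 0.06 to 0.42; edgeR, adjusted p = 0.0599), and with the replicate block it passed (edgeR, adjusted p = 0.00978). Both Tet1 and Tet2 were above WT in 3 of 3 pairs.

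Tet3 (Entrez Gene 194388; GRCm38 chr6:83362373-83457208, minus strand) was the most abundant of the family in WT. It was at 20.4, 20.0 and 22.5 TPM in WT and at 20.0, 20.8 and 18.9 TPM in KD, where the groups overlapped. In CPM it was at 110.4, 110.3 and 121 in WT and at 104, 109 and 102 in KD, so there the KD libraries lay below. The log2 fold change was -0.12 (95% interval -0.25 to 0.01; edgeR, adjusted p = 0.149).

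The share of Tet3 in summed Tet TPM separated the groups most clearly within the family. Tet3 made up 46.4%, 45.4% and 46.1% in WT and 40.4%, 39.2% and 41.0% in KD. The mean was 46.0% ± 0.495 in WT and 40.2% ± 0.916 in KD (SD, n = 3; difference -5.76 percentage points, two-sided exact permutation test, p = 0.1, again the smallest possible). Tet2 took up most of the difference, from 35.6% to 40.2%, and the ratio of Tet2 to Tet3 TPM was 0.737, 0.804 and 0.785 in WT and 0.961, 1.07 and 0.965 in KD.

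**Figure D4:**
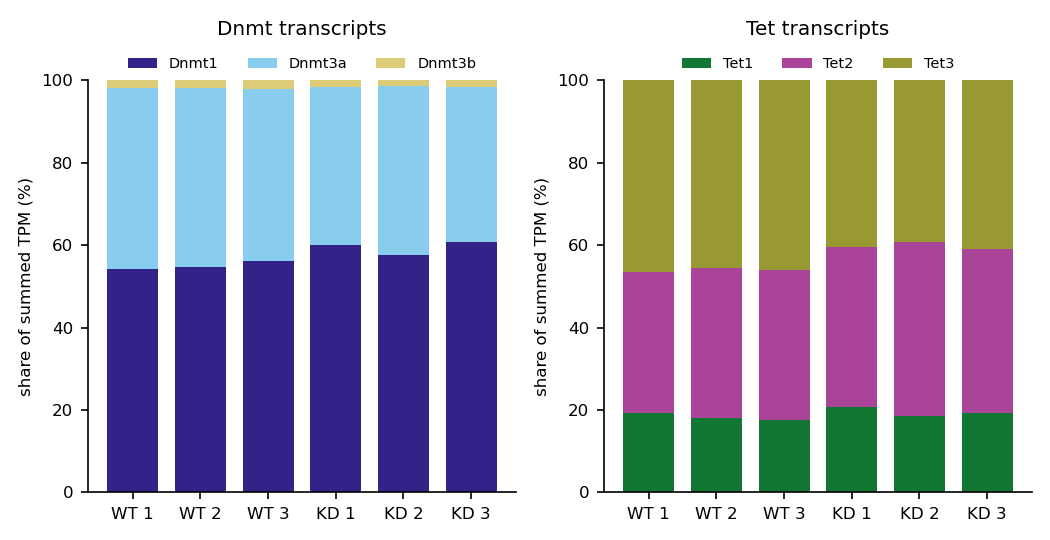
Share of each gene in the summed TPM of its family (y axis, percent) in each library, for the Dnmt genes on the left and the Tet genes on the right. Dnmt1 makes up 54.1% to 56.2% in WT and 57.6% to 60.7% in KD, and Tet3 makes up 45.4% to 46.4% in WT and 39.2% to 41.0% in KD.

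Downstream of Tet oxidation, 2 of 13 tested genes of demethylation and base excision repair rose, none fell and the median log2 fold change was 0.12. With the block 3 rose and none fell. Neil3, a DNA glycosylase of proliferating cells, rose by 0.95 in log2 units, from 3.77 ± 0.420 to 7.56 ± 1.12 TPM. Tdg, the glycosylase that removes oxidised forms of 5-methylcytosine, was at 56.4 ± 1.35 TPM in WT and 102 ± 2.16 TPM in KD (SD, n = 3) and rose by 0.81. Tdg counts were whole in only 2 of 6 libraries, so reads were partly shared with other sequence.

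The methyl-CpG binding domain genes showed no call. Mbd1 (Entrez Gene 17190), which recruits histone methylation to methylated DNA, was at 35.8, 34.6 and 36.6 TPM in WT and at 35.0, 37.2 and 36.8 TPM in KD. The log2 fold change was -0.02 (95% interval -0.13 to 0.10; edgeR, adjusted p = 0.846). Mbd3 (Entrez Gene 17192; GRCm38 chr10:80392539-80399531, minus strand), a core subunit of the nucleosome remodelling and deacetylase (NuRD) complex, was at 136, 145 and 133 TPM in WT and at 147, 139.6 and 140.1 TPM in KD. Its log2 fold change was also -0.02 (95% interval -0.15 to 0.12; edgeR, adjusted p = 0.869). Both intervals reached no further than 0.15 from 0. With total count scaling the values were 0.0051 for Mbd1 and 0.0062 for Mbd3, where the median of all genes had moved to 0.0206, so both stayed below that median.

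Among the 4 listed partners of Mbd1, Chaf1b, a subunit of the chromatin assembly factor that follows replication, rose by 0.46 and the histone methyltransferase gene Setdb1 by 0.20. The median was 0.18, and with the block 3 of the 4 rose. Neither passed without WT replicate 2 or KD replicate 3, and 1 of them passed when WT replicate 3 or 1 of KD replicates 1 and 2 was left out. Of 5 other methyl-CpG binding proteins, none rose and Zbtb4, a zinc finger gene, fell by 0.38 in log2 units. The most abundant of them, Mbd6 and Mbd5, had log2 fold changes of 0.19 and 0.15 and did not pass. With the block Mbd6 passed (edgeR, adjusted p = 0.0408).

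The other NuRD subunits were read beside Mbd3. Of 13 genes, 8 rose and 1 fell, with values from -0.19 to 0.44 and a median of 0.21. With the block the numbers called were also 8 and 1. Gatad2a, which links Mbd3 to the remodeller, rose by 0.44, the deacetylase gene Hdac1 by 0.35, the remodeller gene Chd3 by 0.34 and Gatad2b by 0.31. The gene that fell, named after its values were seen, was Mta3 at -0.19 in counts, with 51.7 ± 2.91 TPM in WT and 52.5 ± 2.30 TPM in KD. The Mta3 call was lost in 10 of 15 alternatives, among them RLE scaling (edgeR, adjusted p = 0.0504), and its sign turned on the TPM scale. Leaving out WT replicate 2, KD replicate 1 or KD replicate 2 lowered the number of NuRD genes that rose to 5. Whether Mbd3 differed from the other subunits was not tested.

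Supply of S-adenosylmethionine, the methyl donor, was covered by 10 genes with a median of 0.16, of which 2 rose and 1 fell. The folate enzyme gene Mthfd1 rose by 0.38 and Ahcyl1 by 0.29. Ahcy, which clears the inhibitory product S-adenosylhomocysteine, fell by 0.22 in log2 units, with fractional counts in 5 of 6 libraries. The Ahcy call was lost in 8 of 15 alternatives, among them total count scaling (edgeR, adjusted p = 0.0753). With the block 4 genes of this list rose and 1 fell.

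**Figure D5:**
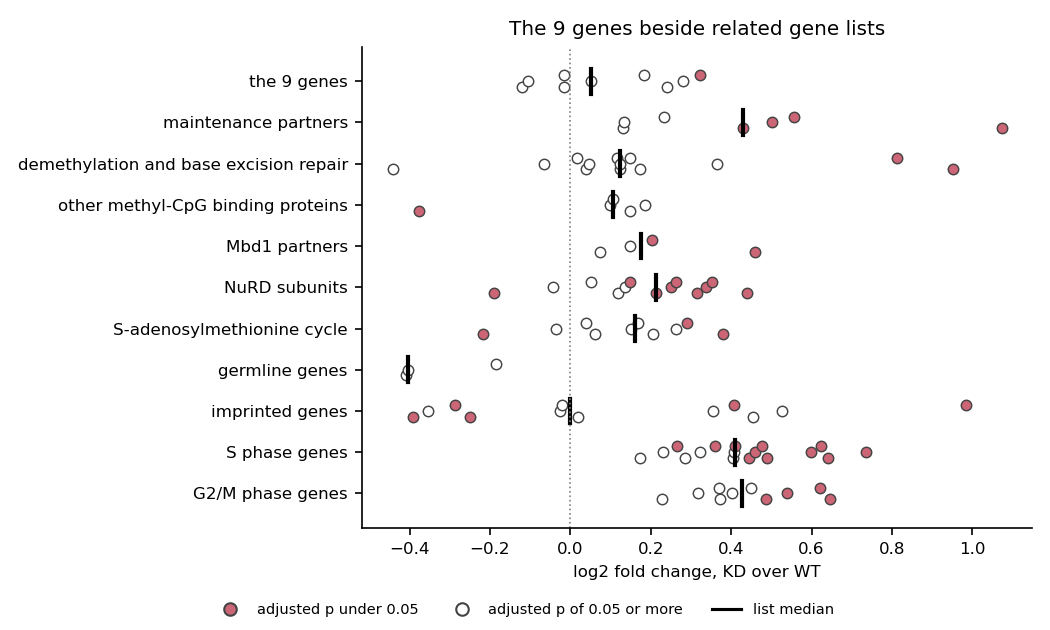
Log2 fold change, KD over WT (x axis), of each tested gene of the 9 and of 10 related lists, with filled points for adjusted p under 0.05 and black ticks for medians. The 9 genes have a median of 0.05, maintenance partners 0.43, S phase genes 0.41 and imprinted genes -0.0009.

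Genes whose silence or dosage depends on DNA methylation were read as a further description. Of 12 germline genes that promoter methylation keeps silent in somatic cells, 8 were listed and 3 had enough counts to be tested, and none passed. Tdrd1 and Dazl, the most abundant, were at 1.44 ± 0.295 and 1.21 ± 0.224 TPM in WT and at 1.11 ± 0.391 and 0.980 ± 0.199 TPM in KD (SD, n = 3). Of 12 imprinted genes tested, 2 rose and 3 fell, with a median of -0.0009. Plagl1, a zinc finger regulator, rose from 34.1 ± 3.41 to 69.8 ± 7.10 TPM (log2 fold change 0.99) and the growth factor receptor adaptor Grb10 by 0.41. The cell cycle inhibitor gene Cdkn1c fell by 0.39 and Zrsr1 fell by 0.29 in log2 units. With the block 5 imprinted genes rose and 4 fell. Without WT replicate 2 the counts were 1 and 1, without KD replicate 2 they were 2 and 1, and without WT replicate 3 or KD replicate 1 only 1 rose.

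Patterns over the 6 libraries were compared with those of 11439 genes with a mean of at least 5 CPM, by Pearson r of log2 CPM, as a description without a test. The libraries share the KD and WT difference, which enters every r. Nearest to Dnmt1 were Rad1 (r = 0.998), G2e3 (0.997), Vax1 (0.996), Zfp384 (0.994) and Rnf213 (0.994). Nearest to Uhrf1 were Vim (0.992), Anxa2 (0.984), Tead2 (0.982), Sox2 (0.982) and Jrk (0.981), of which Vim and Sox2 are also radial glia markers of the list above. KD replicate 1, the high library of Uhrf1, was also the highest for Vim (492 TPM, at most 379 elsewhere) and Sox2 (131 TPM, at most 101 elsewhere). That single library therefore enters these r values. None of the 5 passed between KD and WT (edgeR, adjusted p from 0.0818 to 0.320). Nearest to Dnmt3a were Nfkb1 (0.995), Zfyve26 (0.992), Acsf3 (0.981), Gtf3c1 (0.981) and Ksr2 (0.974). The r was 0.69 between Dnmt1 and Uhrf1, 0.57 between Dnmt1 and Dnmt3a and 0.63 between Uhrf1 and Dnmt3a. At those values no gene could lie this near to more than 1 of them, so the 3 groups of nearest genes could not share any.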

How the data were processed

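mRNA libraries from 3 WT and 3 KD cultures were sequenced by the authors on the DNBSEQ platform. The submitters' processing notes name HISAT2 2.2.1, Bowtie2 2.4.5 and RSEM 1.3.1 with GRCm38 (mm10), without roles or order, and the annotation is not given in the sources used here. The deposited table holds estimated counts per gene, not all whole, and the deposited TPM values were scaled by the authors to transcript length and library total. The other 12 value columns (FPKM of the same libraries and group averages) were not used. The table calls the controls Ctrl, and these were matched to WT titles by number.

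Rounded estimated counts were fitted in edgeR 4.0.16 under R 4.3.3 (TMM, filterByExpr with minimum count 10, quasi-likelihood F-test, Benjamini-Hochberg adjustment over 13669 genes, threshold 0.05). The SE was derived from the log2 fold change and F, as the absolute change over √F. The between-library coefficient of variation was 7.69%. As a check for duplicated libraries, counts were compared between replicates within each group. They differed beyond sampling noise (chi-square per degree of freedom 3.90 to 7.49), so none repeated another of its group, and all 6 libraries were kept. The methods describe independent replicate experiments without saying what a number marks, so p-values measure the spread between these samples. Same-numbered WT and KD libraries deviated together (correlations 0.351, 0.320 and 0.178, against -0.276 to -0.0180 for other pairings). Each group was first centred on its own mean, so positive values in same-numbered pairs push the other pairings below 0. A pairing is therefore possible but not established, and a fit with the number as a block was run as an alternative.

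The 9 genes and all lists were chosen with earlier results of these data known. All 9 members were named, and from each other list at most 4 genes: those called with the largest change or, where fewer than 2 were called, the 2 most abundant. Outside this rule, Mta3, Zbtb4 and the marker Gadd45g were named after their values were seen. Alternatives were other scalings, filters, DESeq2 1.42.0, limma 3.58.1, the block and leaving out each library. The fit was tested on simulated data.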

Additional observations from a re-analysis of the deposited data

How the results depend on the processing

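The number of the 9 genes called higher was 1, and became 3 with total count scaling, 2 with DESeq2, 4 with the replicate block and 0 at an adjusted p under 0.01. Leaving out 1 library gave 0 to 2, with 0 without WT replicate 2 and 2 without WT replicate 3 or without KD replicate 3. The number called lower stayed 0 in all 16 alternatives. Of all genes, 12% were called higher in the main fit and 2539 of 13669 with the block. No such share was computed for the other settings, so their counts cannot be set against a background. The block changed the calls of Uhrf1, Tet1 and Tet2 and no other call among the 9. Tet1 also passed with total count scaling (adjusted p = 0.0484) and without KD replicate 3 (0.0387), and Tet2 with total count scaling (0.0398), DESeq2 (0.0458) and without WT replicate 3 (0.0423), all from fits across all genes. Dnmt1 was higher in KD in all 15 alternatives (log2 fold change 0.26 to 0.38). The sign of Mbd1 turned with total count scaling (0.0051) and with TPM (0.024), and leaving out 1 library gave -0.035 to 0.014 (the latter without KD replicate 1). The sign of Mbd3 turned with total count scaling (0.0062) and with TPM (0.041), and leaving out 1 library gave -0.054 to 0.032 (the latter without WT replicate 2, and 0.0053 without KD replicate 2). The median of all genes itself moved from -0.0013 to 0.0206 with total count scaling and to 0.0461 with TPM, and both genes stayed below it there. With no filter on low counts both lay above the median, Mbd1 by 0.0018 and Mbd3 by 0.0026. Mbd3 was also above it without WT replicate 2 (by 0.031) or KD replicate 2 (by 0.0073), and Mbd1 without KD replicate 1 (by 0.018). For the libraries left out the cause was not tested. The shares of Dnmt1 (3.80 to 5.33 points) and Tet3 (-6.15 to -5.26 points) kept their direction in every alternative that could change it. So did the values relative to S phase genes (-0.17 to -0.02 for Dnmt1 and -0.28 to -0.12 for Uhrf1). Pairing leaves a mean difference unchanged by arithmetic, so it could not turn the direction. Nor can 3 pairs give an exact permutation p below 0.25. A filter of 5 CPM in 3 libraries left no value for Dnmt3b or the germline genes. Among the results given, depth limits Dnmt3b and the germline genes. Of the named list genes that passed, Cdca7l and Aurkb lost the call in 6 of 15 alternatives, Bub1 in 5, Chaf1b and Cdc6 in 4, Setdb1, Grb10 and Cdc45 in 3, Hells and Cdkn1c in 2 and Zrsr1 and Top2a in 1, with no turn of sign.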
